A study of Oryza sativa Japonica Group with 9 samples.

Results

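The PYL genes of rice encode the receptors of abscisic acid (ABA), the hormone that plants make when water runs short. The loci followed here are listed as OsPYL receptor genes and were found by gene name, 8 of the 55986 genes in the tables: LOC_Os05g12260, LOC_Os02g15640, LOC_Os03g18600, LOC_Os10g42280, LOC_Os06g36670, LOC_Os02g13330, LOC_Os05g39580 and LOC_Os01g61210. Published numbering of the OsPYL genes is not uniform, so loci are used here as names. The tables describe LOC_Os05g12260 and LOC_Os02g15640 as regulatory components of ABA receptor 3, and LOC_Os06g36670 and LOC_Os02g13330 as PYR1-like 2. The other 4 carry only the name of the wider superfamily, polyketide cyclase/dehydrase and lipid transport proteins.

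In ABA signalling, a PYL receptor that has bound the hormone docks onto a clade A protein phosphatase 2C (PP2C) and blocks it. The phosphatase otherwise keeps SnRK2 kinases, called SAPK in rice, switched off. Freed kinases phosphorylate bZIP transcription factors of the ABF type, which bind ABA-responsive elements in the promoters of dehydrin and other protective genes. OsbZIP23 is one of these bZIP factors, so the receptors act at the head of the pathway in which it works.

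The study measured messenger RNA in above-ground parts of seedlings of the japonica rice Zhonghua 11 (ZH11) at the 4-leaf stage. The 3 genotypes were wild-type ZH11, an OsbZIP23 mutant and a line in which OsbZIP23 was overexpressed, the last 2 taken from an earlier study. Each was sampled without stress and after drought that lasted until all leaves had rolled, with unstressed plants collected at the same time, which gave 6 RNA libraries of 1 per group. Neither the promoter of the overexpression construct, the kind of mutation nor the number of plants per library is given in the sources used here. Total read numbers were 9.48 to 13.52 megareads per library.

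Levels are given as read numbers, as CPM (read numbers per megaread, with library sizes scaled by TMM, edgeR's trimmed mean of log ratios) or as the authors' FPKM, which is also per gene length. A gene was called changed at an adjusted p under 0.05 in an edgeR model with terms for genotype and stress over the 6 libraries. Differences between 2 single libraries were not tested, and their 95% intervals cover counting error only. OsbZIP23 itself (LOC_Os02g52780) had 442.5 reads in ZH11 normal. Its CPM in the mutant was 36.5% of ZH11 without stress and 33% under drought. It was 40.8-fold the ZH11 level (interval 37.1 to 45) in the overexpressor without stress, but 0.954 of it (0.917 to 0.992) in the drought library labelled overexpressor. Scaled by total reads alone that drought ratio was 1.11, and on the authors' FPKM it was 1.26, so its direction depended on the scale. The drought library labelled overexpressor therefore does not show OsbZIP23 raised as in the unstressed overexpressor, and values from it are given under its label.

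Marker genes of leaf and of senescence differed with stress. All 4 leaf markers (3 genes of the Rubisco small subunit and 1 of a light-harvesting protein) fell under drought. Their summed level was 16851 to 22553 FPKM in normal libraries and 124 to 703 FPKM in drought libraries. The senescence markers SGR and OsNAP rose, from 9.91 to 29.7 FPKM together without stress to 156 to 507 FPKM under drought. Both were called, as were all 4 leaf markers, and over all 21409 tested genes 26.1% rose and 27.5% fell under drought. Of the root markers, Lsi2 had 0 reads in each of the 6 libraries and Lsi1 had 26.5 to 135 reads. The meristem marker OSH1 had 0 to 2 reads. The part of these marker changes in the receptor values below was not tested, and in whole shoots fewer cells of a type and less RNA per cell cannot be told apart.

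Receptor transcripts came almost entirely from 4 of the 8 loci. Of 7864 reads over all receptor loci and libraries, LOC_Os05g12260 held 5073.5, LOC_Os02g15640 1415.5, LOC_Os03g18600 996 and LOC_Os10g42280 337. These 4 had enough reads for the test. The other 4 together held 42 reads, 0.534% of the total, and were too low to be tested.

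**Figure D1:**
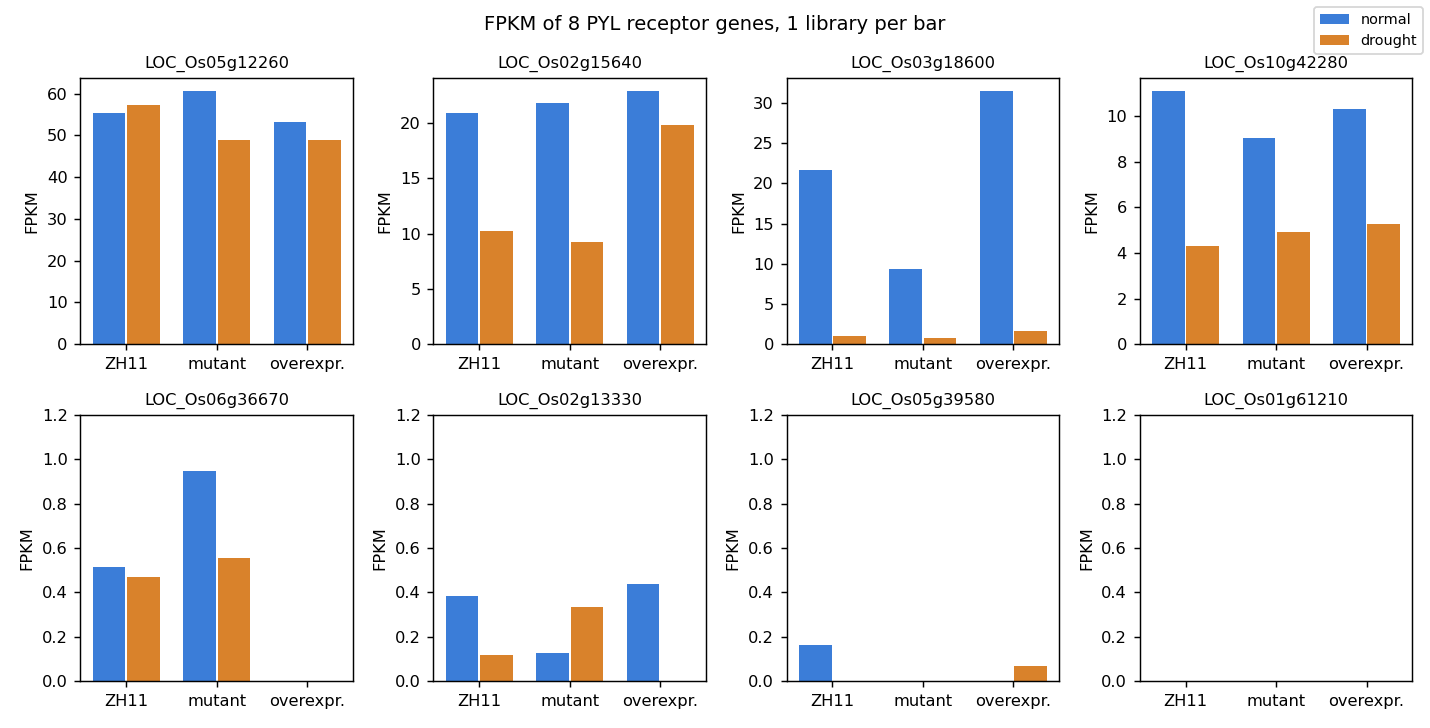
FPKM (y axis) of each of the 8 receptor loci in ZH11, the mutant and the overexpressor (x axis) without stress (blue) and under drought (orange), 1 library per bar, with a scale of its own for each upper panel. LOC_Os03g18600 dropped from 9.38 to 31.5 FPKM without stress to 0.805 to 1.6 FPKM under drought, while LOC_Os05g12260 stayed between 48.8 and 60.6 FPKM and the lower 4 loci stayed under 1 FPKM.

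LOC_Os05g12260 was the most abundant receptor transcript per length in 6 of 6 libraries. It had 55.4 FPKM in ZH11 normal, 60.6 in mutant normal and 53.2 in overexpressor normal. Under drought it had 57.3 FPKM for ZH11, 48.8 for the mutant and 49 for the library labelled overexpressor. Its highest and lowest libraries were both from the mutant, and the levels of the drought and normal libraries overlapped.

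Without stress the next places were close. LOC_Os02g15640 averaged 21.9 ± 0.977 FPKM (SD over the 3 genotypes, n = 3) and LOC_Os03g18600 averaged 20.9 ± 11.1 FPKM, a gap within the spread of the latter. LOC_Os10g42280 followed at 10.2 ± 1.07 FPKM. Under drought the order was LOC_Os05g12260 at 51.7 ± 4.85, LOC_Os02g15640 at 13.1 ± 5.86, LOC_Os10g42280 at 4.85 ± 0.492 and LOC_Os03g18600 at 1.14 ± 0.412 FPKM (SD, n = 3 each). No range touched that of its neighbour in the drought order. LOC_Os03g18600 thus ranked behind LOC_Os05g12260 and, in the mutant, also behind LOC_Os02g15640 without stress, and lowest of the 4 tested loci in each drought library.

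The low loci differed in how often they were seen. LOC_Os06g36670 had 6 reads in ZH11 normal, 6 in ZH11 drought, 11 in mutant normal and 5 in mutant drought, and 0 in both overexpressor libraries. LOC_Os02g13330 had 1 to 3 reads in 5 libraries and 0 in the drought library labelled overexpressor. LOC_Os05g39580 had 3 reads in ZH11 normal, 1 in that same drought library and 0 in the other 4. For LOC_Os01g61210, 0 reads were listed in all 6, which allows up to 3 reads in 68.3 megareads, or 0.0439 per megaread. A 0 in a single library allows up to 3 reads there, which is 0.222 to 0.316 per megaread. Differences among conditions were not detectable at this depth for the last 3 loci.

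A receptor description was also found on 6 rows outside the 8 loci. LOC_Os06g33480, LOC_Os06g33640 and LOC_Os02g15620 had 0 reads in all libraries, LOC_Os06g33490 had 1.5 and LOC_Os06g33690 had 2 over the 6 libraries. The last, LOC_Os03g18850, had many reads and is described with the additional observations.

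**Figure D2:**
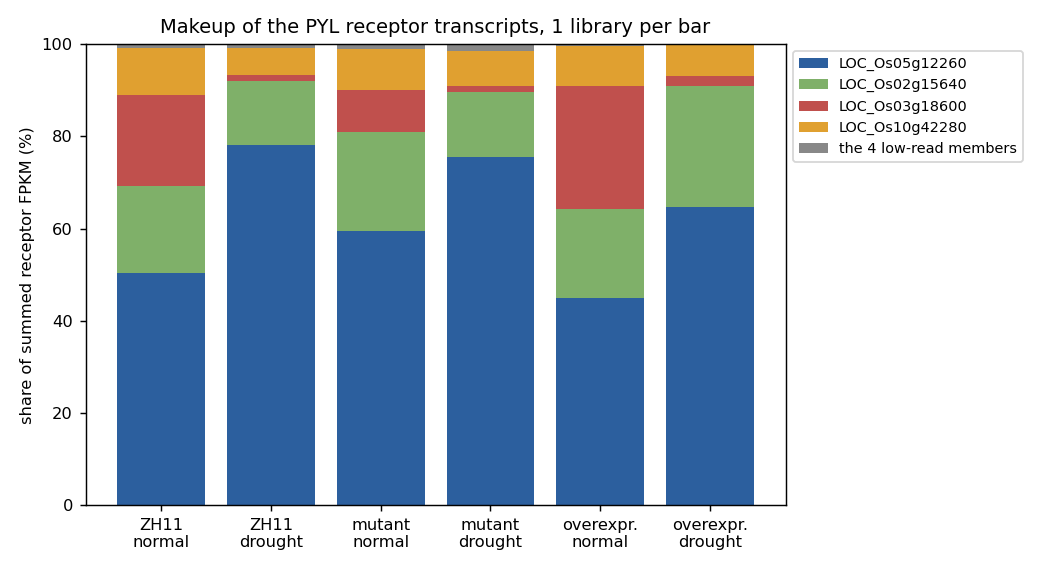
Share of each locus in the summed FPKM of the 8 receptors (y axis, percent) in each library (x axis, 1 library per bar; overexpr., overexpressor). LOC_Os05g12260 made up 44.9% to 59.5% without stress and 64.7% to 78.1% under drought, and the share of LOC_Os03g18600 shrank from 9.2% to 26.6% without stress to 1.24% to 2.11%.

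The makeup of the receptor transcripts differed between the stress states. LOC_Os05g12260 held 50.3% of the summed receptor FPKM in ZH11 normal and 78.1% in ZH11 drought. In the mutant its share was 59.5% without stress and 75.4% under drought, and in the libraries labelled overexpressor 44.9% and 64.7%. The ranges of the 2 stress states did not overlap. The FPKM of LOC_Os05g12260 itself did overlap, at 53.2 to 60.6 without stress and 48.8 to 57.3 under drought. Shares of the same sum depend on each other, so a fall of other loci raises its share. The share of LOC_Os03g18600 was 19.7%, 9.2% and 26.6% in ZH11, mutant and overexpressor without stress, and 1.39%, 1.24% and 2.11% under drought. That of LOC_Os02g15640 lay between 19% and 21.4% without stress, at 13.8% in ZH11 drought, 14.3% in mutant drought and 26.2% in the drought library labelled overexpressor. For LOC_Os10g42280 the shares were 8.74% to 10.1% and 5.89% to 7.63%.

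The sum of the 8 loci was 102 to 118 FPKM in normal and 64.7 to 75.8 FPKM in drought libraries. On the TMM scale the same sum was 106 to 133 CPM without stress and 94.9 to 109.6 CPM under drought, so the ranges overlapped. Whether the sum separated the stress states thus depended on the scale. It also depended on the 8 loci chosen: with the 6 other rows described as receptors added, of which LOC_Os03g18850 held nearly all reads, the sum was 114 to 134 FPKM without stress and 248 to 357 FPKM under drought. Whether LOC_Os03g18850 encodes an ABA receptor was not tested, so the larger sum may not be one of receptor transcripts.

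The drought comparison asks which receptor transcripts differ between watered and stressed seedlings over the genotypes. One of the 4 tested receptors fell, LOC_Os03g18600, and 0 rose. Over all 21409 tested genes 27.5% fell and 26.1% rose, so 1 call in 4 is near the background and is no result about the receptors as a group. The median log2 fold change of the 4 was -0.57, against -0.15 for all tested genes.

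LOC_Os03g18600 had 349 reads in ZH11 normal, 150.5 in mutant normal and 447.5 in overexpressor normal. In drought it had 18 reads for ZH11, 10 for the mutant and 21 for the library labelled overexpressor. These are 25.6, 10.3 and 37.1 CPM without stress and 1.54, 1.4 and 2.08 CPM under drought. All drought libraries lay far below all normal ones, and the normal libraries spread widely while the drought libraries lay close together. The locus fell by 3.75 on the log2 scale (SE 0.36, 95% interval -4.64 to -2.87, adjusted p = 0.000918 in edgeR), 13.5-fold, and was lower in 3 of 3 genotypes. The call held under all 16 alternatives, with log2 fold changes from -4.11 to -3.22.

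The other 3 tested receptors were not called. LOC_Os10g42280 had 89, 72 and 73 reads without stress in ZH11, mutant and overexpressor, and 38, 30.5 and 34.5 under drought. On the TMM scale these were 4.9 to 6.54 CPM and 3.25 to 4.28 CPM, so the 2 stress states did not overlap. The log2 fold change was -0.70 (SE 0.33, 95% interval -1.5 to 0.11, adjusted p = 0.12 in edgeR). With total-count scaling it was -1.09 (adjusted p = 0.0494), and with limma on the authors' FPKM -1.05 (adjusted p = 0.023 at a pseudocount of 0.1).

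LOC_Os02g15640 had 304 reads in ZH11 normal, 316.5 in mutant normal and 293.5 in overexpressor normal. Under drought it had 162.5 reads for ZH11, 104 for the mutant and 235 for the library labelled overexpressor. The normal libraries lay at 21.6 to 24.3 CPM, and only the last drought library, at 23.2 CPM, reached into that range, with the other 2 at 13.9 and 14.6 CPM. The log2 fold change was -0.44 (SE 0.24, 95% interval -1.02 to 0.15, adjusted p = 0.165 in edgeR), and it was called with limma on FPKM (-0.82, adjusted p = 0.0448 at a pseudocount of 0.1).

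For LOC_Os05g12260 the TMM-scaled levels were 68, 68.8 and 65 CPM without stress in ZH11, mutant and overexpressor, and 90.2, 88.4 and 66 CPM under drought. The ZH11 and mutant drought libraries were thus above the normal range, and the one labelled overexpressor was inside it. The log2 fold change was 0.26 (SE 0.22, 95% interval -0.26 to 0.79, adjusted p = 0.335 in edgeR) and turned to -0.13 with total-count scaling. In fold terms the TMM interval ran from 0.833 to 1.73.

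Libraries of the 2 stress states did not overlap, with drought lower, for 2 of the 4 tested receptors on the TMM scale, LOC_Os03g18600 and LOC_Os10g42280, against 34.6% of all tested genes. On the FPKM scale this held for 3 of 4, the same pair and LOC_Os02g15640, against 42.7%. Drought was higher without overlap for 0 of 4 on either scale, against 31% and 23.4% of tested genes. Total-count scaling moved the median drought log2 fold change of all genes by -0.39.

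**Figure D3:**
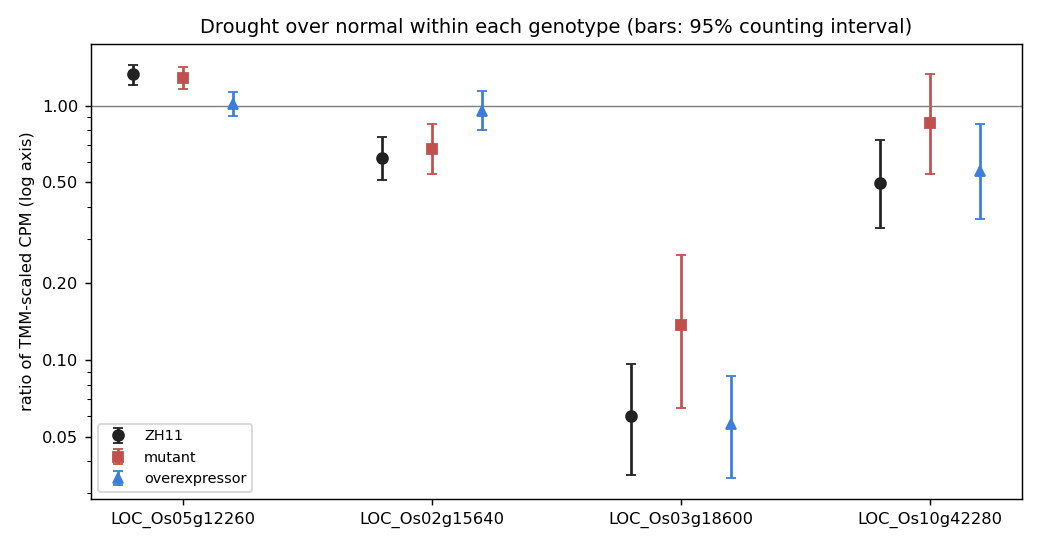
Ratio of TMM-scaled CPM under drought to that without stress (log y axis) for the 4 tested receptors (x axis) in each genotype; points are single-library ratios and bars are exact 95% counting intervals. LOC_Os03g18600 lay at 0.0559 to 0.137 in all genotypes, and LOC_Os02g15640 lay near 1 in the libraries labelled overexpressor (0.954) but at 0.621 and 0.677 in ZH11 and the mutant.

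Genotype by genotype, 1 receptor was at least 2-fold lower under drought in each genotype, LOC_Os03g18600 every time, of 4 receptors with 10 or more reads in a library of the pair in ZH11 and the overexpressor, and of 5 in the mutant. The threshold was applied to log2(CPM + 0.5), on which LOC_Os10g42280 in ZH11, with a plain ratio of 0.497, did not reach it. Over all genes with that many reads, 29.6% were at least 2-fold lower for ZH11, 32.8% for the mutant and 20.5% for the overexpressor, so these shares are near the background too. None of the receptors was at least 2-fold higher. Of all genes, 25% were so for ZH11, 26.5% for the mutant and 20% for the overexpressor.

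For LOC_Os03g18600 the drought level was 0.0601 of the normal level for ZH11 (interval 0.0352 to 0.0964), 0.137 for the mutant (0.0645 to 0.259) and 0.0559 in the libraries labelled overexpressor (0.0343 to 0.0866). The mutant started from the lowest normal level, and all 3 ended at 1.4 to 2.08 CPM. The mutant's interval overlapped both others, and the difference between genotypes was not tested.

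For LOC_Os02g15640 and LOC_Os05g12260 the drought ratios of the genotypes are given side by side, from 1 library each. The drought ratio of LOC_Os02g15640 was 0.621 for ZH11 (0.51 to 0.754), 0.677 for the mutant (0.537 to 0.848) and 0.954 in the overexpressor (0.8 to 1.14). That of LOC_Os05g12260 was 1.33 for ZH11 (1.21 to 1.45), 1.28 for the mutant (1.16 to 1.42) and 1.02 in the overexpressor (0.915 to 1.13). For both loci the overexpressor ratio was the one nearest to 1 on the TMM scale, though for LOC_Os02g15640 its interval overlapped that of the mutant. With total-count scaling the ratios of LOC_Os02g15640 were 0.483, 0.424 and 0.86, and those of LOC_Os05g12260 were 1.03, 0.804 and 0.916, so for the second locus the overexpressor then lay between the other genotypes. The drought library labelled overexpressor also kept the highest summed leaf markers of the drought libraries (703 FPKM) and the lowest senescence markers (156 FPKM), and the part of either in these ratios was not tested.

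LOC_Os10g42280 had drought ratios of 0.497 for ZH11 (0.331 to 0.735), 0.858 for the mutant (0.541 to 1.33) and 0.556 in the overexpressor (0.359 to 0.846). All 3 intervals overlapped. At 30.5 to 89 reads per library, a difference between genotypes in this ratio was not detectable at this depth.

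The genotype comparisons ask whether the receptor transcripts depend on OsbZIP23. No receptor was called in either comparison with ZH11. None of the 4 had an unadjusted p under 0.05 in the edgeR or DESeq2 fit over all 6 libraries. In some edgeR fits with 1 library left out, the mutant term of LOC_Os03g18600 was under that limit, and no receptor was called there either. Calls were rare over all genes as well: for the mutant 0.014% of tested genes were called up and 0% down, and for the overexpressor 0.0187% up and 0% down. Unadjusted p under 0.05 was reached by 779 genes for the mutant (3.64% of tested genes) and 1104 for the overexpressor (5.16%) in edgeR. Neither share is much above the 0.05 that would pass where no gene differs. DESeq2 called 81 and 63 genes. Both comparisons share the ZH11 libraries. The same fit did not call OsbZIP23 itself, at -1.56 in the mutant (SE 1.23, adjusted p = 1 in edgeR) and 3.53 in the overexpressor (SE 1.57, adjusted p = 0.942). The overexpressor term pools an unstressed library with raised OsbZIP23 and a drought library at about the ZH11 level, and a miss in this fit does not show that a transcript is independent of OsbZIP23.

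Among the 4 tested receptors, LOC_Os03g18600 had the genotype terms farthest from 0 in this fit. Its log2 fold change was -0.90 in the mutant (SE 0.43, 95% interval -1.96 to 0.15, adjusted p = 1 in edgeR) and 0.49 in the overexpressor (SE 0.39, 95% interval -0.47 to 1.45, adjusted p = 0.942). The mutant value rested on the normal library: it was -0.10 without mutant normal and -1.35 without mutant drought. It was -0.99 without the drought library labelled overexpressor and -0.95 without overexpressor normal. The overexpressor value was 0.10 without overexpressor normal (adjusted p = 0.948).

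The other 3 tested receptors had genotype terms nearer to 0, with intervals that all included 0. In the mutant the log2 fold changes were -0.01 for LOC_Os05g12260 (95% interval -0.65 to 0.64), 0.01 for LOC_Os02g15640 (-0.71 to 0.72) and -0.04 for LOC_Os10g42280 (-1.03 to 0.95). In the overexpressor they were -0.25 (-0.9 to 0.39), 0.44 (-0.27 to 1.15) and -0.04 (-1.02 to 0.93) in the same order. The overexpressor value of LOC_Os02g15640 was 0.13 without the drought library labelled overexpressor and 0.72 without overexpressor normal (adjusted p = 1 and 0.281). These misses do not show that the genotypes have equal receptor levels.

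**Figure D4:**
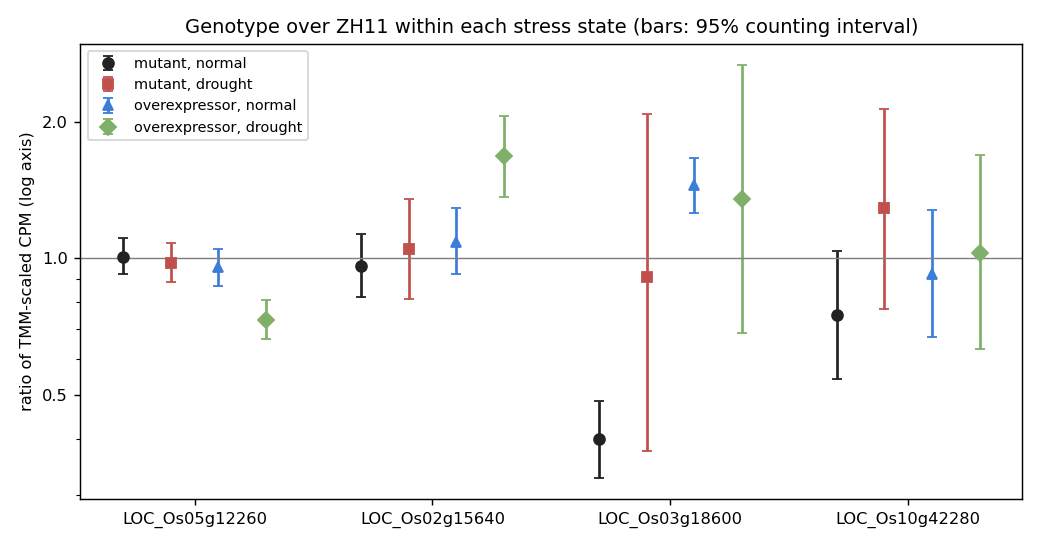
Ratio of TMM-scaled CPM in the mutant or overexpressor to ZH11 (log y axis) for the 4 tested receptors (x axis), without stress and under drought; points are single-library ratios and bars are exact 95% counting intervals. LOC_Os03g18600 lay at 0.399 in the unstressed mutant and 1.45 in the unstressed overexpressor, and the drought library labelled overexpressor lay at 0.732 for LOC_Os05g12260 and 1.68 for LOC_Os02g15640.

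Without stress, the mutant had 0.399 of the ZH11 level of LOC_Os03g18600 (interval 0.327 to 0.484) and the overexpressor had 1.45 (1.26 to 1.67). The level of this receptor thus had the same order over the unstressed libraries as OsbZIP23 itself, mutant lowest and overexpressor highest, with 1 library each. LOC_Os02g15640 had that order too in CPM (21.6 in the mutant, 22.3 in ZH11 and 24.3 in the overexpressor), with intervals of both ratios that included 1. On the authors' FPKM it did not, at 21.8 in the mutant, 20.9 in ZH11 and 22.9 in the overexpressor. LOC_Os05g12260 had the reverse order in CPM (68.8, 68 and 65), and LOC_Os10g42280 was highest in ZH11 (4.9, 6.54 and 6.05). The summed leaf markers had the order of OsbZIP23, at 16851, 21406 and 22553 FPKM in the unstressed mutant, ZH11 and overexpressor. The senescence markers had the reverse order, at 29.7, 19.8 and 9.91 FPKM. The part of either in the level of LOC_Os03g18600 was not tested, and the share of all genes with this order was not counted. LOC_Os03g18600 was the 1 receptor at least 2-fold lower in the mutant of 5 with enough reads, against 4.06% of genes, and 0 of 5 were at least 2-fold higher, against 3.44%. In the overexpressor 0 of 4 receptors were 2-fold apart from ZH11, against 2.32% of genes higher and 3.83% lower. LOC_Os05g12260 lay at 1.01 (0.924 to 1.11) and 0.956 (0.869 to 1.05) of ZH11 in the 2 lines, and LOC_Os02g15640 at 0.964 (0.821 to 1.13) and 1.09 (0.926 to 1.29). For LOC_Os10g42280 the values were 0.75 (0.542 to 1.04) and 0.925 (0.67 to 1.28).

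Under drought the mutant was close to ZH11 for LOC_Os05g12260 and LOC_Os02g15640, and the intervals of the other tested receptors were wide. LOC_Os05g12260 had a ratio of 0.979 (0.886 to 1.08), LOC_Os02g15640 1.05 (0.814 to 1.35), LOC_Os10g42280 1.29 (0.774 to 2.14) and LOC_Os03g18600 0.91 (0.375 to 2.08). Each interval included 1, and that of LOC_Os03g18600, from 10 and 18 reads, is too wide to show a difference like the unstressed one. That of LOC_Os10g42280, from 30.5 and 38 reads, also reached past 2-fold. For the library labelled overexpressor under drought, LOC_Os05g12260 stood at 0.732 of its ZH11 level (0.664 to 0.808) and LOC_Os02g15640 at 1.68 (1.37 to 2.06). Its other ratios were 1.35 for LOC_Os03g18600 (0.684 to 2.68) and 1.03 for LOC_Os10g42280 (0.631 to 1.69), with intervals that included 1. No receptor was at least 2-fold apart in either comparison under drought. Over all genes, 5.98% were 2-fold higher and 6% lower in the mutant, and 11.2% higher and 8.54% lower in the library labelled overexpressor.

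**Figure D5:**
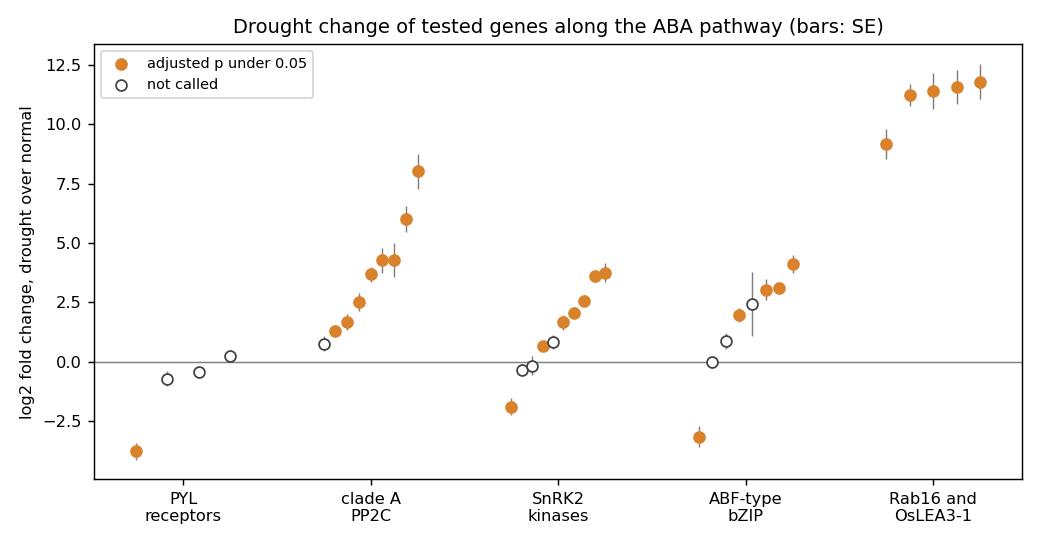
Drought log2 fold change (y axis) of the tested genes of 5 groups in pathway order (x axis), from the edgeR fit over 6 libraries; filled points are called, open points are not, and bars are SE. Receptors lay between -3.75 and 0.26, below all 9 clade A PP2C genes, which lay between 0.77 and 8.02.

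Transcripts of the later steps of the pathway were tested in the same fit. The lists were chosen with earlier results of these data known, so their counts describe the lists and are no independent support. Of the 9 clade A PP2C genes in the tables, all of them tested, 8 rose and 0 fell under drought, where 26.1% of all tested genes rose and 27.5% fell. Their median was 3.68 on the log2 scale. OsPP2C51 was the largest at 8.02 (SE 0.73) and OsPP2C08 the smallest at 0.77 (SE 0.31, adjusted p = 0.0754 in edgeR), the 1 not called. Of 10 SnRK2 kinases 6 rose and 1 fell, against the same 26.1% and 27.5%, with a median of 1.25, SAPK1 at 3.76 (SE 0.40) being the largest. Between 4 and 7 of them rose under the alternatives, and between 6 and 9 of the PP2C genes. SAPK7, which fell by 1.88, was not called without either of the ZH11 libraries. Of 8 tested ABF-type bZIP genes 4 rose and 1 fell, again against 26.1% and 27.5%, with a median of 2.19. OsbZIP12 at 4.11 (SE 0.37) and OsbZIP62 at -3.15 (SE 0.44) were at the ends, and 7 rose when either or both overexpressor libraries were left out, and also with no filter on low counts. All 5 target genes of the pathway, Rab16A to Rab16D and OsLEA3-1, rose, with a median of 11.38. In the genotype comparisons 0 members of these 4 lists were called by edgeR, against 0 to 3 genes called per direction over the genome for the mutant and 0 to 4 for the overexpressor.

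Summed per length, the transcripts of the 8 receptor loci were set against those of the listed clade A PP2C and SnRK2 genes. All 10 SnRK2 genes were summed, and which of them act with the receptors was not tested. In ZH11 normal the clade A PP2C genes summed to 150.4 FPKM and the receptors to 110.3, a ratio of 1.36. In ZH11 drought the sums were 1974 and 73.4 FPKM, a ratio of 26.9. The ratio was 1.61 and 21.2 in the mutant and 1.93 and 16.1 in the libraries labelled overexpressor, without and with drought. SnRK2 transcripts over receptor transcripts stood at 2.54 to 2.91 without stress and 8.97 to 10.5 under drought. Both ratios are independent of library scaling, since each is taken within a library, and the ranges of the stress states did not overlap for either. With the 6 other rows described as receptors added to the sum, an alternative chosen after the values were seen, PP2C over receptor transcripts stood at 1.22 to 1.83 without stress and 4.92 to 5.53 under drought. SnRK2 over receptor transcripts then stood at 2.2 to 2.47 and 1.84 to 2.75, so the stress states overlapped. Nearly all reads of the added rows were from LOC_Os03g18850, and whether it encodes an ABA receptor was not tested. The ratios count transcripts, not proteins.

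The genes with the pattern most like each receptor were sought among 11417 genes of at least 10 CPM on average. Likeness was the root-mean-square difference of centred log2(CPM + 0.5) over the 6 libraries, which all genes share. For LOC_Os03g18600 the nearest were an HSP20-like chaperone gene (LOC_Os07g33350, 0.241), a gene described as a calcium-activated RelA/spot homolog (LOC_Os05g06920, 0.278) and the glycine decarboxylase P-protein gene (LOC_Os06g40940, 0.304), which encodes an enzyme of photorespiration. LOC_Os10g42280 was nearest to a beta glucosidase gene (LOC_Os06g46940, 0.0686), an alpha/beta-hydrolase gene (LOC_Os01g07960, 0.0696) and a lycopene cyclase gene (LOC_Os08g32630, 0.0768), an enzyme class of carotenoid synthesis.

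For LOC_Os02g15640 they were the sphingoid base hydroxylase gene LOC_Os07g43460 (0.0557), a dephospho-CoA kinase gene (LOC_Os01g25880, 0.0737) and LOC_Os04g20424 (0.0821), which has no description. LOC_Os05g12260 was nearest to a haem oxygenase-like gene (LOC_Os08g45160, 0.0477), LOC_Os02g22370 (0.0562), also with no description, and a nucleoside triphosphate hydrolase gene (LOC_Os03g59050, 0.0629). The distances were larger for LOC_Os03g18600, whose levels varied most, than for the other 3. No gene was shared between the lists of the 4 receptors.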

How the data were processed

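RNA libraries of 6 groups were analysed, 1 per group; the 3 ChIP libraries of the series were not analysed here. The deposited tables give, per the file headers, a read number per gene (treated as an expected count, in steps of 0.5) and FPKM computed by the authors. Trimmomatic 0.32, TopHat2 2.0.8 and edgeR 3.6.0 are named in the submitters' processing notes; for the genome build, annotation, counter and strand the entry is: not given in the sources used here. Of 48 receptor values 10 ended in 0.5, so how reads shared between similar genes were counted is unknown. Read number over FPKM gave, after scaling by library, the same gene length within 1% as in ZH11 normal for 83.4% to 87.1% of genes with at least 20 reads.

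The 56001 lines gave 55986 genes after 15 repeated names were summed. Counts were rounded and fitted with edgeR 4.0.16 (R 4.3.3): TMM scaling, filterByExpr by stress, an additive quasi-likelihood model of genotype and stress over 6 libraries, and Benjamini-Hochberg adjustment over 21409 genes. CPM divides by the reads of tested genes times the TMM factor. The fit has 2 residual and 4.02 prior degrees of freedom, and a dependence of the drought effect on genotype enters its error. The SE is the log2 fold change over the root of F, with 95% intervals from the t distribution. The samples come with no statement of separate cultures, so p-values measure the spread among these libraries only.

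Single-library ratios carry exact (Clopper-Pearson) intervals for genes with 10 or more reads in 1 of the paired libraries; a 2-fold difference was judged on log2(CPM + 0.5). DESeq2 1.42.0, limma 3.58.1 on log2(FPKM + 0.1) and log2(FPKM + 1), other scalings and filters, and leaving out libraries were the alternatives. The edgeR fit was run on simulated data with a lower dispersion than the 0.0954 estimated here, few changed genes and no genotype effect. That run checks the code and not how the fit behaves on these data. The loci and the pathway lists were chosen with earlier results of these data known; locus symbols come from general knowledge of rice genes, and 9 of 10 listed PP2C loci were matched by name. Named were all 8 receptors, called and extreme members of each list, and the 3 genes nearest to each tested receptor.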

Additional observations from a re-analysis of the deposited data

How the results depend on the processing

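The fall of LOC_Os03g18600 under drought was called under all 16 alternatives. The number of receptors called under drought was 1 as reported, 2 with total-count scaling and 3 with limma on FPKM at either pseudocount, and 1 under every alternative that leaves out a library. Total-count scaling and FPKM gave 3 receptors at least 2-fold lower under drought in ZH11 and 2 in the mutant, in place of 1. No receptor was called for either genotype under any alternative. Leaving out 1 library at a time gave 4898 to 13787 drought calls over all genes, the low end without ZH11 drought and 5238 without ZH11 normal, against 11475 as reported. Drought calls split 5579 up and 5896 down as reported, 4024 and 7328 with total-count scaling, and 4210 and 7739 with limma on log2(FPKM + 0.1).

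Mutant calls over all genes were 3 as reported, 9 with total-count scaling, 1 with RLE size factors, 81 with DESeq2, 184 with no filter, 9 and 8 with limma at pseudocounts of 0.1 and 1, and 0 to 185 when 1 library was left out. Overexpressor calls were 4, and 12, 63, 158, 11 and 13 under the same alternatives other than RLE, and 0 to 422 when 1 library was left out. The cause of these shifts was not tested. Where a library is left out, its genotype keeps 1 library, assumed to vary like the rest. The share of LOC_Os05g12260 counted in reads was 55.1% in ZH11 normal, 82.4% in ZH11 drought, 64.7% in mutant normal, 80.6% in mutant drought, 49% in overexpressor normal and 69.6% in overexpressor drought. No paired analysis was possible because each group has 1 library with no replicate number in the labels; genotype is a term of the fit. Adding the rows described as receptors to the receptor sum, chosen after seeing the data, lowered the PP2C ratio in ZH11 drought from 26.9 to 5.53 and the SnRK2 ratio from 8.97 to 1.84. Loci under about 10 reads are limited by depth.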

Other observations

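A row outside the 8 receptor loci, LOC_Os03g18850, is described in the tables as PYR1-like 2. It was picked out after its values were seen, and whether it encodes an ABA receptor was not tested. It had 36 reads in ZH11 normal, 357.5 in mutant normal and 65.5 in overexpressor normal. Under drought it had 3435.5 reads for ZH11, 1739.5 for the mutant and 1541 for the library labelled overexpressor. Each drought library lay above every normal one. It rose by 4.90 on the log2 scale (SE 0.73, adjusted p = 0.00311 in edgeR), with a drought ratio of 111 for ZH11 (95% counting interval 80.2 to 159), 10 for the mutant (8.92 to 11.2) and 27.9 for the overexpressor (21.8 to 36.2). Without stress the mutant had 9.22 times the ZH11 level (6.54 to 13.4), from 1 library each. Its FPKM ran from 0.0296 to 3.86 times the sum of the 8 receptors.

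LOC_Os06g36670, also singled out after its values were seen, had 12 reads over the ZH11 libraries, 16 over the mutant libraries and 0 over the overexpressor libraries. With the overexpressor pair set at a floor of 3 reads, ZH11 was 3.51-fold higher and the mutant 5.42-fold higher. Counting error of the 12 and 16 reads is not included, so these are not lower limits. Fitted with no filter on low counts, its overexpressor term had an adjusted p of 0.438 in edgeR, so it was not called.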
